A study of Mus musculus with 9 samples.

Results

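The genes described here encode the subunits of oxidative phosphorylation in Panc02, a cell line from a mouse ductal adenocarcinoma of the pancreas. They were chosen by symbol: names that begin with Nduf and a letter a, b, c, s or v with a digit, Cox with a digit from 4 to 8 and a letter, Uqcr or Atp5, and mt-Nd, mt-Co, mt-Cytb or mt-Atp. The rule left out 6 pseudogenes and found 92 of the 49671 genes in the deposited table. Of these, 79 are encoded in the nucleus, with 37 in complex I, 8 in complex III, 18 in complex IV and 16 in complex V. The other 13 are encoded in mitochondrial DNA, with 7 in complex I, 1 in complex III, 3 in complex IV and 2 in complex V. The complex was assigned by the start of the symbol alone. Ndufa4 and Ndufa4l2 were thus counted in complex I and Cox7a2l in complex IV. Whether each protein works in the complex assigned was not checked.

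Bulk RNA sequencing of poly(A) RNA was done on 3 groups of 3 libraries from untreated cells in serum-containing DMEM. KO_1E7 is a clone labelled as knocked out for VPAC2, the receptor for vasoactive intestinal peptide encoded by Vipr2. CRISPR_1G2 is a clone that went through CRISPR editing and is labelled wild type, although the design text counts both clones among the knockout cells. The parental group is the unedited line. Each edited group is 1 clone, and its replicates repeat that clone, so loss of VPAC2 and other differences between clones cannot be told apart. No label says that replicates came from separate cultures, so a p-value sets differences against the spread of these 3 libraries per group, and how much of that spread is technical is not known. The column names of replicates 1 and 2 carry dates that differ within every group, and those of replicate 3 the tag NSG, and the labels explain neither. KO_1E7 replicate 1 shares its date with parental replicate 1 and CRISPR_1G2 replicate 1 with parental replicate 2, while KO_1E7 replicate 2 and CRISPR_1G2 replicate 2 are alone on theirs.

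The electron transport chain passes electrons from NADH to oxygen through complexes I, III and IV, which pump protons out of the mitochondrial matrix, and complex V, the ATP synthase, uses the returning protons to make ATP. Complexes I, III, IV and V each combine subunits from both genomes. The mitochondrial subunits lie in the membrane cores and are transcribed as long precursors from mitochondrial DNA, while nuclear subunits are imported as proteins.

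Vipr2 transcripts were rare in every library. KO_1E7 had 1, 2 and 1 counts, CRISPR_1G2 had 1, 13 and 12, and the parental line had 6, 3 and 12. KO_1E7 counts lay below the parental ones and overlapped with those of CRISPR_1G2. The difference did not pass edgeR's quasi-likelihood test against the parental line (log2 fold change -2.45, SE 0.93, adjusted p = 0.155) or against CRISPR_1G2 (-2.95, SE 0.91, adjusted p = 0.0675).

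Each library held between 27898705 and 51878289 reads counted on genes. CRISPR_1G2 replicate 3 and parental replicate 3 stood apart from the rest. Their first principal component scores were 86.34 and 58.21, against -68.31 to 19.24 in the other libraries, and CT010467.1 took 15.3% of the gene counts of parental replicate 3. Summed levels, as CPM (read counts scaled to a common library size), of glycolysis genes were 8872 CPM in CRISPR_1G2 replicate 3 and 9348 CPM in parental replicate 3, against 15984 to 21311 CPM in the other 7 libraries. Of 12 pancreatic duct markers, 11 were tested, and Krt7 (log2 fold change -2.50, adjusted p = 0.0323 in edgeR) and Cldn7 (-1.89, adjusted p = 0.0156) fell in KO_1E7 against parental cells. The duct markers summed to 4027 to 7179 CPM in KO_1E7, 2075 to 5051 CPM in CRISPR_1G2 and 3635 to 5777 CPM in parental libraries. Islet markers summed to at most 0.0726 CPM, with Ins1, Gcg, Sst and Chga at 0 in all libraries. The 7 acinar markers summed to 7.39 to 13.3 CPM in KO_1E7, 1.27 to 2.21 CPM in CRISPR_1G2 and 2.35 to 2.87 CPM in parental libraries. Of these, Cela1 was tested and rose in KO_1E7 against parental cells (log2 fold change 2.23, adjusted p = 0.0165), and Amy2b and Ptf1a were at 0. Immune markers summed to 30.8 to 89.0 CPM over the 9 libraries, fibroblast markers to 51.3 to 139 CPM, endothelial markers to 0.617 to 1.83 CPM and striated muscle markers to 1.72 to 7.55 CPM. The part of these markers in the results was not tested. In bulk RNA, a change in the mix of cells and a change of RNA within cells cannot be told apart.

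The reads that fell on the mitochondrially encoded genes were very unevenly spread. In counts per library, mt-Co1, mt-Cytb, mt-Nd1, mt-Nd2, mt-Nd4, mt-Nd5 and mt-Nd6 had between 5649 and 609414, while mt-Co2, mt-Co3, mt-Nd3, mt-Nd4l and mt-Atp6 had between 10 and 421. Each of the 5 low genes has an annotated copy on chromosome 1 that covers at least 95% of its length with at most 1 mismatch: Gm28661, Gm28437, Gm28438, Gm10222 and Gm10925. Gm28438, the copy of mt-Nd3, had 3083 counts over the 9 libraries, and mt-Nd3 had 2567. The only difference found over 345 aligned bases was T3C, counted from 1 at the start of mt-Nd3, where mt-Nd3 comes first. The beginnings of both are shown because they hold that single difference, given in capitals (GENCODE M21 transcripts on GRCm38, chrM:9459-9491 on the plus strand for mt-Nd3 and chr1:24613087-24613119 on the minus strand for Gm28438).
mt-Nd3: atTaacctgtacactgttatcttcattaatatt
Gm28438: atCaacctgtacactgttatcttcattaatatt
Whether reads that match several places were counted is not given in the sources used here, so the separate values of these 5 genes are uncertain. The gene mt-Atp8 was as low, with 10 to 40 counts, and this search found no annotated copy of it. Part of mt-Nd4, 63.6% of its length, also has an identical copy, Gm28439. For mt-Co1, Gm29216 matches 31.3% of its length with 1 mismatch, and Gm13340 matches all of it at 97.6% identity. These had 215 and 296 counts over the 9 libraries, beside 2992538 for mt-Co1. Partial copies of lower identity were found for mt-Nd2 (Gm13339, 96.7%) and mt-Nd5 (Gm4076, 95.2%).

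**Figure D1:**
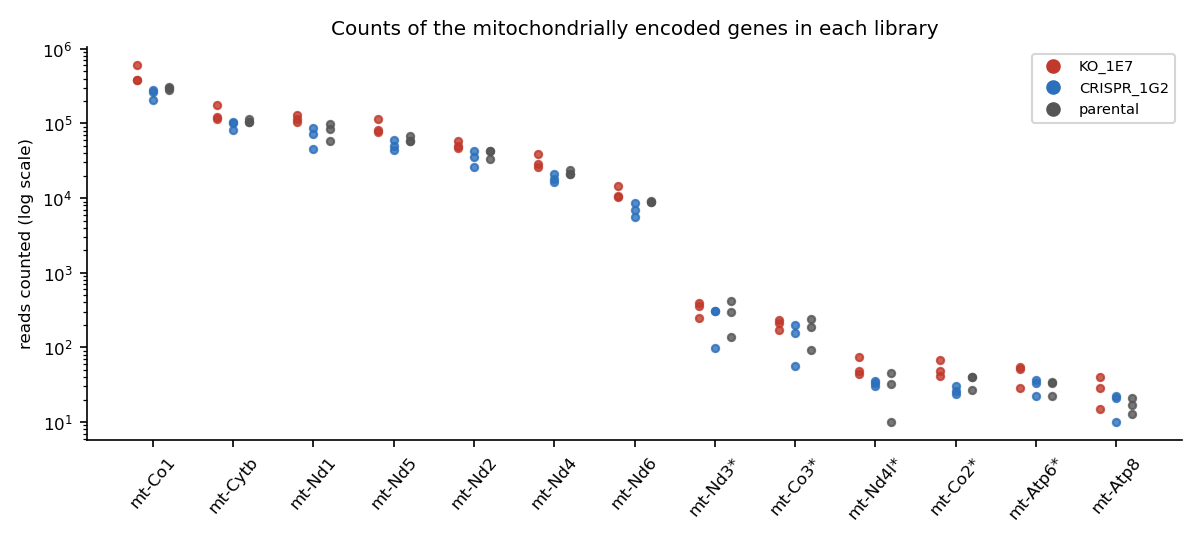
Reads counted on each of the 13 mitochondrially encoded genes (x axis) in each library (log scale on the y axis), 3 points per group, KO_1E7, CRISPR_1G2 and parental from left to right. An asterisk marks genes with an annotated copy on chromosome 1 over at least 95% of their length. A gap separates 7 genes with at least 5649 counts from 6 with at most 421.

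Summed levels of the mitochondrially encoded genes, as counted, were higher in KO_1E7 than in either other group. Of the reads on the 13 genes, mt-Co2, mt-Co3, mt-Nd3, mt-Nd4l, mt-Atp6 and mt-Atp8 each took at most 0.066%. The sums and ratios below therefore rest on the other 7 genes. The 13 mitochondrially encoded genes summed to 21903, 21541 and 23087 CPM in KO_1E7, 16918, 18475 and 16021 CPM in CRISPR_1G2, and 17523, 17615 and 15587 CPM in parental libraries. The KO_1E7 libraries lay above all others and the remaining groups overlapped. The 79 nuclear genes summed to 7293, 6640 and 7195 CPM in KO_1E7, 7595, 7303 and 7434 CPM in CRISPR_1G2, and 7536, 8169 and 6734 CPM in parental libraries. The KO_1E7 libraries overlapped with the parental ones and lay just below those of CRISPR_1G2. The ratio of mitochondrial to nuclear sums was 3.00, 3.24 and 3.21 in KO_1E7, 2.23, 2.53 and 2.16 in CRISPR_1G2, and 2.33, 2.16 and 2.31 in parental libraries. It averaged 3.15 ± 0.13 in KO_1E7, 2.30 ± 0.20 in CRISPR_1G2 and 2.27 ± 0.095 in parental libraries (SD, n = 3 each). Among the libraries tagged NSG it was 3.21 in KO_1E7, 2.16 in CRISPR_1G2 and 2.31 in the parental line, again highest in KO_1E7. Between libraries that share a date it was 3.00 in KO_1E7 and 2.33 in the parental line, and 2.23 in CRISPR_1G2 and 2.16 in the parental line. One gene, mt-Co1, took 44.8% to 53.6% of the reads on the 13 genes and made up 3120 of the 5269 CPM by which the mean sum of KO_1E7 lay above that of parental cells (59.2%). Without mt-Co1 the other 12 genes summed to 11174, 9993 and 11839 CPM in KO_1E7, 9345, 10147 and 7553 CPM in CRISPR_1G2, and 9450, 9228 and 7881 CPM in parental libraries. Here KO_1E7 lay above the parental line and overlapped with CRISPR_1G2. Their ratio to the nuclear sum was 1.53, 1.51 and 1.65 in KO_1E7, 1.23, 1.39 and 1.02 in CRISPR_1G2, and 1.25, 1.13 and 1.17 in parental libraries, highest in KO_1E7. A sum over genes got no test.

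**Figure D2:**
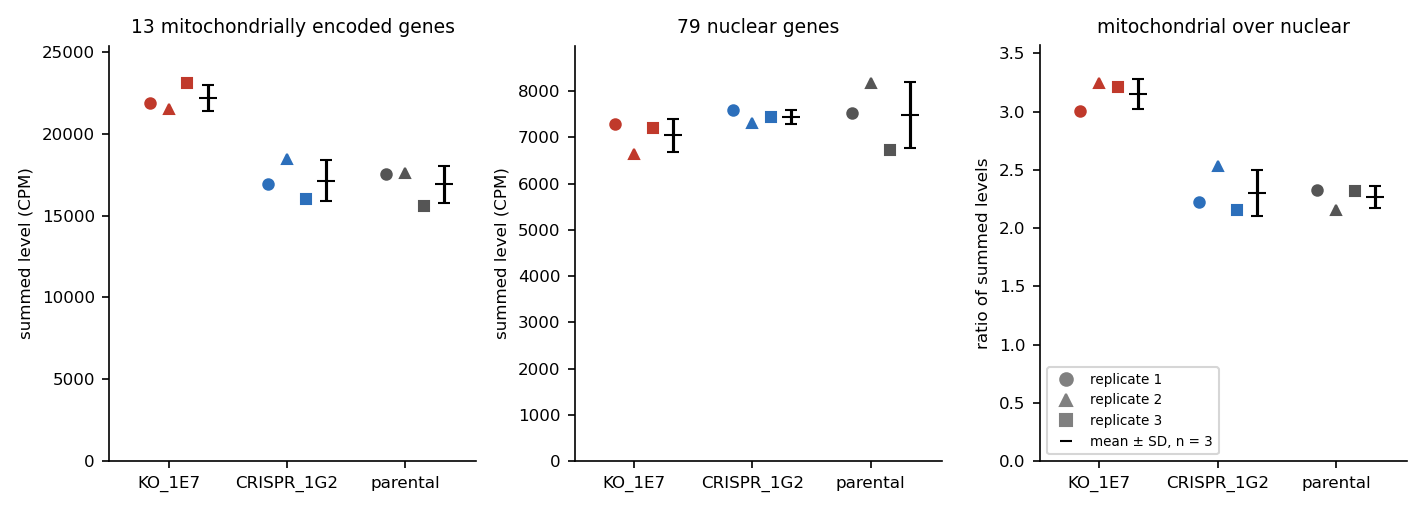
Summed CPM of the 13 mitochondrially encoded genes, of the 79 nuclear genes, and their ratio (y axes) in each library, with groups on the x axis. The bar is the mean ± SD of 3 libraries. The ratio lies between 3.00 and 3.24 in KO_1E7 and between 2.16 and 2.53 in the other groups.

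Single mitochondrial genes had positive estimates in KO_1E7, but none passed the test. In KO_1E7 against parental cells, all 13 were positive, with a median log2 fold change of 0.40 beside -0.03 over all genes tested, and a range from 0.10 to 0.78. At an adjusted p below 0.05, edgeR called 0 of the 13, where 5.42% of all genes tested were called, 2.54% higher and 2.87% lower. At an unadjusted p below 0.05 there were 3 of 13, beside 23.7% of all genes. DESeq2 called mt-Co1, mt-Nd4 and mt-Nd5 higher, beside 6.96% of genes. In 7 of the 13, the KO_1E7 libraries lay above the parental libraries, beside 17.2% of genes. Against CRISPR_1G2 the 13 were positive as well, with a median of 0.34, and for CRISPR_1G2 against parental cells the median was 0.01. These comparisons share libraries, the parental ones between the clones and those of KO_1E7 between its comparisons. Without CRISPR_1G2 replicate 3 and parental replicate 3, the medians were 0.28 against parental and 0.19 against CRISPR_1G2, and the lowest estimates turned negative, at -0.23 (mt-Nd3) and -0.31. In that setting edgeR called mt-Co1, mt-Nd4 and mt-Nd5 higher than in parental cells, when 3330 of 15837 genes were called. It called mt-Co1 and mt-Nd5 higher than in CRISPR_1G2, when 4615 genes were called.

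Gene mt-Co1 encodes the catalytic subunit of cytochrome c oxidase. Its level per length, as counted, was the highest of the set, at 5901 CPM per kb over the 9 libraries. The place in this order of the 5 genes copied on chromosome 1 is not known, because their counts are uncertain. mt-Co1 had 10729, 11547 and 11248 CPM in KO_1E7, 7574, 8328 and 8469 CPM in CRISPR_1G2, and 8073, 8387 and 7705 CPM in parental libraries. Every KO_1E7 library was above every other one, but the change against parental cells missed the threshold of 0.05 in edgeR (log2 fold change 0.47, SE 0.13, adjusted p = 0.0758), and that against CRISPR_1G2 did too (0.46, SE 0.13, adjusted p = 0.0564). The threshold against parental cells was passed in 5 of 19 other settings, with DESeq2 and with CRISPR_1G2 replicate 3 left out among them. The gene mt-Nd5, for a proton-pumping subunit of complex I, had 2295, 2147 and 2314 CPM in KO_1E7, 1625, 1873 and 1546 CPM in CRISPR_1G2 and 1877, 1613 and 1633 CPM in parental cells (log2 fold change against parental 0.40, SE 0.13, adjusted p = 0.117 in edgeR). Its KO_1E7 libraries also lay above all others.

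The gene mt-Cytb, which encodes the cytochrome b of complex III, had 3414, 3300 and 3465 CPM in KO_1E7, 2979, 3283 and 3109 CPM in CRISPR_1G2, and 3156, 2870 and 2874 CPM in parental cells. The log2 fold change against parental cells was 0.19 (SE 0.12, adjusted p = 0.378 in edgeR). mt-Nd4, another membrane subunit of complex I, had 803, 731 and 768 CPM in KO_1E7, 601, 664 and 551 CPM in CRISPR_1G2, and 648, 576 and 589 CPM in parental cells. All KO_1E7 libraries were higher for both genes. The NADH dehydrogenase subunit mt-Nd1 had 2996, 2427 and 3457 CPM in KO_1E7, 2592, 2709 and 1369 CPM in CRISPR_1G2, and 2325, 2719 and 1605 CPM in parental cells, and its groups overlapped. Its lowest values were in replicate 3 of CRISPR_1G2 and of the parental line. Relative to mt-Co1, mt-Nd1 was 0.162 in CRISPR_1G2 replicate 3 and 0.208 in parental replicate 3, against 0.210 to 0.342 in the other libraries. Of the remaining complex I subunits, mt-Nd2 had 1345, 1099 and 1508 CPM in KO_1E7, 1274, 1329 and 798 CPM in CRISPR_1G2, and 1185, 1182 and 919 CPM in parental cells. mt-Nd6, the subunit encoded on the other strand of mitochondrial DNA, had 305, 273 and 306 CPM in KO_1E7, 253, 268 and 172 CPM in CRISPR_1G2, and 242, 245 and 253 CPM in parental cells. The groups overlapped for mt-Nd2, while all KO_1E7 libraries were highest for mt-Nd6, as counted. mt-Nd6 starts at base 13552 and mt-Nd5 ends at base 13565 on the other strand, so the 2 genes overlap. Without strand, reads from the opposite strand over mt-Nd6 cannot be told apart from its own, and their part in its counts was not tested.

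Among nuclear genes, edgeR called 2 of 74 tested members, both lower in KO_1E7 than in parental cells. Of all 92 members, 87 were tested (74 nuclear and 13 mitochondrial). The expression filter left out 5 nuclear ones: Cox7b2, Cox8c, Cox8b, Cox6b2 and Ndufa4l2, none of them above 0.414 CPM in any library. In edgeR 0 nuclear members rose, where 5.42% of 15766 genes were called, 2.54% higher and 2.87% lower. At an unadjusted p below 0.05 there were 22 of the 74, beside 23.7% of genes. DESeq2 called 14 of the 74 lower and 2 higher, where it called 15.0% of genes, 6.96% higher and 8.08% lower. In 23 of the 74 the KO_1E7 libraries lay below and in 6 above the parental ones, beside 17.3% and 17.2% of all genes tested. The median log2 fold change over the 74 nuclear members was -0.11, beside -0.03 over all genes. By complex it was -0.09 over 36 genes of complex I, -0.27 over 8 of complex III, -0.20 over 14 of complex IV and -0.10 over 16 of complex V. Of the 74, 51 had negative and 23 positive estimates. Without CRISPR_1G2 replicate 3 and parental replicate 3, edgeR called 17 members lower and 4 higher, mitochondrial ones included, when 3330 of 15837 genes were called. With a term for the date or tag in the column names, a setting chosen after seeing the data that leaves 2 residual degrees of freedom and fits KO_1E7 replicate 2 and CRISPR_1G2 replicate 2 exactly, so that they do not bear on the difference, the calls were Uqcrq, Uqcr10 and Cox6a2 lower and Uqcrh higher, and neither of the 2 reported ones.

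**Figure D3:**
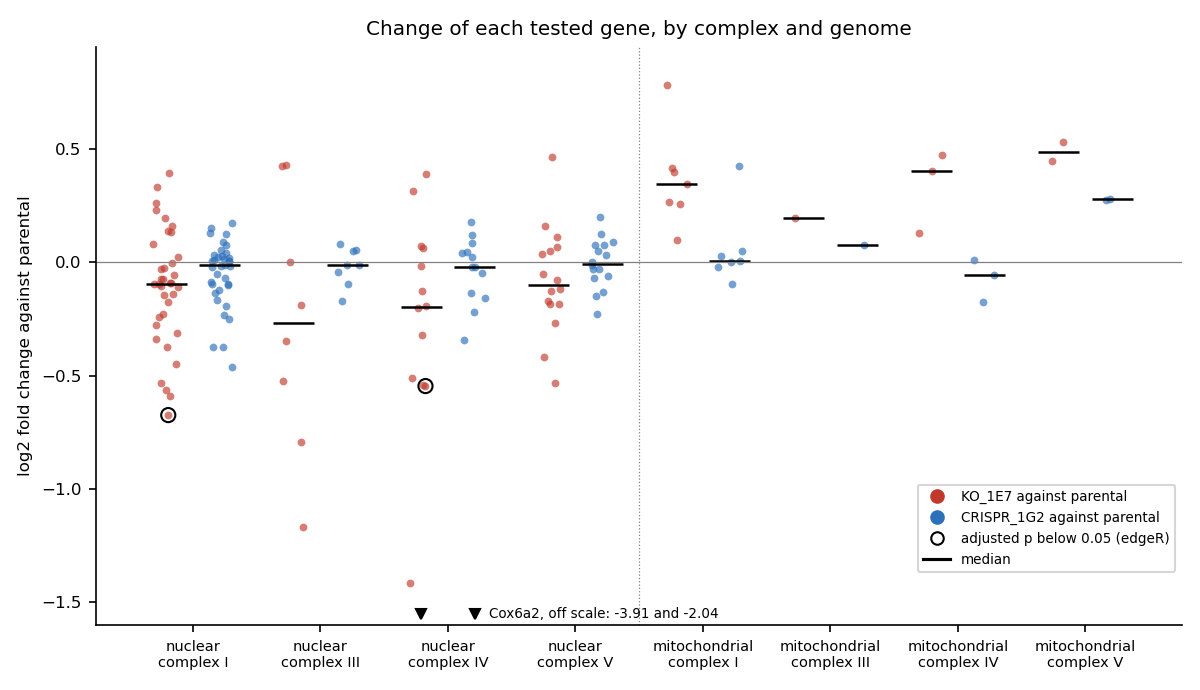
Log2 fold change against parental cells (y axis) of each tested gene by complex and genome (x axis), KO_1E7 in red on the left and CRISPR_1G2 in blue on the right of each place, with the median as a bar. Circles mark adjusted p below 0.05, and triangles mark Cox6a2, whose changes of -3.91 and -2.04 lie below the axis. The 13 mitochondrial genes lie above 0 for KO_1E7.

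Ndufa12, an accessory subunit of complex I (ENSMUSG00000020022, chr10:94198955-94221443, plus strand, GRCm38), fell in KO_1E7. It had 80.4, 59.3 and 71.1 CPM in KO_1E7, 84.5, 79.2 and 96.2 CPM in CRISPR_1G2, and 110, 123 and 104 CPM in parental cells. The KO_1E7 and CRISPR_1G2 libraries overlapped, and both lay below all parental ones. The log2 fold change was -0.67 against parental cells (SE 0.15, adjusted p = 0.0375 in edgeR) and CRISPR_1G2 against parental was -0.37 (SE 0.15, adjusted p = 0.597). A processed pseudogene, Gm15920, matches 36.2% of it, so the split of reads between them is uncertain. Cox6b1, a subunit of cytochrome c oxidase facing the intermembrane space (ENSMUSG00000036751, chr7:30616861-30626151, minus strand), had 48.6, 55.2 and 51.4 CPM in KO_1E7, 83.6, 83.9 and 79.1 CPM in CRISPR_1G2, and 68.8, 87.9 and 69.9 CPM in parental cells. The KO_1E7 libraries lay below all others, with a log2 fold change of -0.55 (SE 0.13, adjusted p = 0.0470 in edgeR) against parental cells. Both calls ended with the date or tag term (adjusted p = 0.0796 for Ndufa12 and 0.0806 for Cox6b1) and when any 1 library other than CRISPR_1G2 replicate 3 was left out, with adjusted p up to 0.165 for Ndufa12 and 0.199 for Cox6b1 over all settings.

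Between CRISPR_1G2 and parental cells edgeR called 0 of 87 members, where 0.254% of genes were called, 0.0% higher and 0.254% lower. At an unadjusted p below 0.05 there were 2 of 87, Ndufv1 and Ndufa12, beside 7.73% of genes. DESeq2 called Ndufv1, which encodes the NADH-binding subunit of complex I, lower, where it called 1.5% of genes, 0.44% higher and 1.06% lower. In 5 tested members the CRISPR_1G2 libraries lay below and in 1 above the parental ones, beside 6.45% and 6.64% of genes.

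The comparison of KO_1E7 with CRISPR_1G2 called 7 of 87 members, 1 higher and 6 lower, where 12.7% of 15766 genes were called (5.71% higher and 7.03% lower). All 7 are nuclear. At an unadjusted p below 0.05 there were 20 of 74 nuclear members, beside 29.0% of genes. DESeq2 called 5 nuclear members higher and 12 lower, where it called 21.5% of genes, 9.73% higher and 11.8% lower. The KO_1E7 libraries lay above the CRISPR_1G2 ones in 12 and below in 20 nuclear members, beside 19.2% and 19.4% of genes. Without CRISPR_1G2 replicate 3 and parental replicate 3, edgeR called 8 members higher and 17 lower, mitochondrial ones included, when 4615 of 15837 genes were called. With the date or tag term, Ndufb9 alone of the 7 was called (adjusted p = 0.0486), beside Uqcrq and Uqcr10 lower and mt-Nd1 higher.

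The 3 complex I members that fell are accessory subunits. Ndufa3 (ENSMUSG00000035674, chr7:3617373-3620327, plus strand) had 12.1, 13.6 and 13.1 CPM in KO_1E7, 19.7, 21.1 and 17.1 CPM in CRISPR_1G2, and 18.9, 20.9 and 17.5 CPM in parental cells. Ndufb4 (ENSMUSG00000022820, chr16:37647170-37654453, minus strand) had 6.70, 7.05 and 7.13 CPM in KO_1E7, 10.2, 10.9 and 10.6 CPM in CRISPR_1G2, and 9.32, 11.9 and 10.2 CPM in parental cells. Ndufb9 (ENSMUSG00000022354, chr15:58933810-58939489, plus strand) had 48.2, 50.6 and 52.8 CPM in KO_1E7, 67.3, 69.1 and 97.1 CPM in CRISPR_1G2, and 67.4, 69.3 and 82.8 CPM in parental cells. For these genes each KO_1E7 library was below every library of the other groups. The log2 fold changes of KO_1E7 against CRISPR_1G2 were -0.58 for Ndufa3 (SE 0.15, adjusted p = 0.0368), -0.60 for Ndufb4 (SE 0.16, adjusted p = 0.0440) and -0.62 for Ndufb9 (SE 0.17, adjusted p = 0.0417), by edgeR. Ndufb4 shares 40.2% of its length with the pseudogene Ndufb4c, which had 56 counts over the 9 libraries, beside 2961 for Ndufb4. Ndufb9 shares 28.7% with Gm49356, which has no entry among the deposited counts. How far these matches affect the counts of Ndufb4 and Ndufb9 is not known.

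Nuclear complex III genes had lower summed levels in KO_1E7. The 8 nuclear genes summed to 586, 593 and 576 CPM in KO_1E7, 704, 679 and 723 CPM in CRISPR_1G2, and 718, 739 and 652 CPM in parental cells, so that KO_1E7 lay below both groups, and this sum got no test. Mean sums were 585 CPM in KO_1E7 and 703 CPM in parental cells. Of these, Uqcrq made up 53.8 and 121 CPM and Uqcrc2 97.8 and 140 CPM, so these genes weigh heavily in the difference. Among the 8 estimates against parental cells, 5 were negative and 3 positive. The nuclear sums of complexes I, IV and V overlapped between KO_1E7 and parental cells. Those of complex V were 3518, 3201 and 3575 CPM in KO_1E7, below the 3816, 3627 and 3703 CPM in CRISPR_1G2. Uqcrc2, a core protein of complex III (ENSMUSG00000030884, chr7:120635176-120659524, plus strand), had 88.9, 107 and 97.9 CPM in KO_1E7, 142, 135 and 142 CPM in CRISPR_1G2, and 154, 149 and 119 CPM in parental cells. It fell against CRISPR_1G2 (log2 fold change -0.51, SE 0.13, adjusted p = 0.0397 in edgeR). Pdzd9 overlaps 26.7% of it on the other strand, and reads of the pair cannot be told apart without strand.

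The estimates of small subunits of complex III had both signs. Uqcrq had 49.5, 60.3 and 51.6 CPM in KO_1E7, 76.4, 81.9 and 181 CPM in CRISPR_1G2, and 119, 81.7 and 162 CPM in parental cells. Uqcr10 had 23.8, 28.8 and 26.9 CPM in KO_1E7, 35.2, 35.4 and 63.0 CPM in CRISPR_1G2, and 41.9, 42.3 and 53.5 CPM in parental cells. In both genes KO_1E7 was lowest, and replicate 3 of both other groups was highest. The changes against parental cells were -1.17 for Uqcrq (SE 0.36, adjusted p = 0.0920) and -0.79 for Uqcr10 (SE 0.24, adjusted p = 0.0864), not called by edgeR. With the date or tag term they were -1.50 (adjusted p = 0.00503) and -0.98 (adjusted p = 0.0267). Uqcrb, named here after its values were seen, had 65.2, 56.2 and 68.8 CPM in KO_1E7, 48.5, 46.9 and 45.0 CPM in CRISPR_1G2, and 49.6, 53.9 and 38.3 CPM in parental cells, higher in every KO_1E7 library but not called (log2 fold change 0.42 against parental, SE 0.15, adjusted p = 0.136 in edgeR). Uqcrb shares 62.8% of its length with pseudogenes such as Gm2962.

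In complex IV, Cox7b, a small nuclear subunit (ENSMUSG00000031231, chrX:106015700-106022450, plus strand), had 43.5, 46.4 and 42.3 CPM in KO_1E7, 69.7, 73.8 and 69.1 CPM in CRISPR_1G2, and 60.7, 71.9 and 55.5 CPM in parental cells. It fell against CRISPR_1G2 (log2 fold change -0.69, SE 0.13, adjusted p = 0.0122 in edgeR), and Cox6b1 fell by 0.67 (SE 0.13, adjusted p = 0.0143). Against parental cells Cox7b had an adjusted p of 0.0529. Atp5s, coupling factor B of the ATP synthase (ENSMUSG00000054894, chr12:69724962-69744658, plus strand), was the 1 member that rose: it had 9.64, 8.62 and 9.67 CPM in KO_1E7, 5.52, 6.62 and 5.13 CPM in CRISPR_1G2, and 6.75, 6.38 and 7.09 CPM in parental cells. Its log2 fold change against CRISPR_1G2 was 0.69 (SE 0.18, adjusted p = 0.0374 in edgeR). The 7 calls against CRISPR_1G2 depended on single libraries to unequal degrees. That of Cox7b ended without KO_1E7 replicate 1 or 3 (adjusted p up to 0.0753 over all settings), and that of Cox6b1 ended without KO_1E7 replicate 1 or 3 or CRISPR_1G2 replicate 1 or 2 (up to 0.0860). When 1 library was left out, that of Ndufa3 held only without CRISPR_1G2 replicate 3 or parental replicate 3 (up to 0.242). Those of Uqcrc2 (up to 0.159), Atp5s (up to 0.136) and Ndufb9 (up to 0.142) held only without parental replicate 3, and that of Ndufb4 ended without any 1 of the 9 libraries (up to 0.290).

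**Figure D4:**
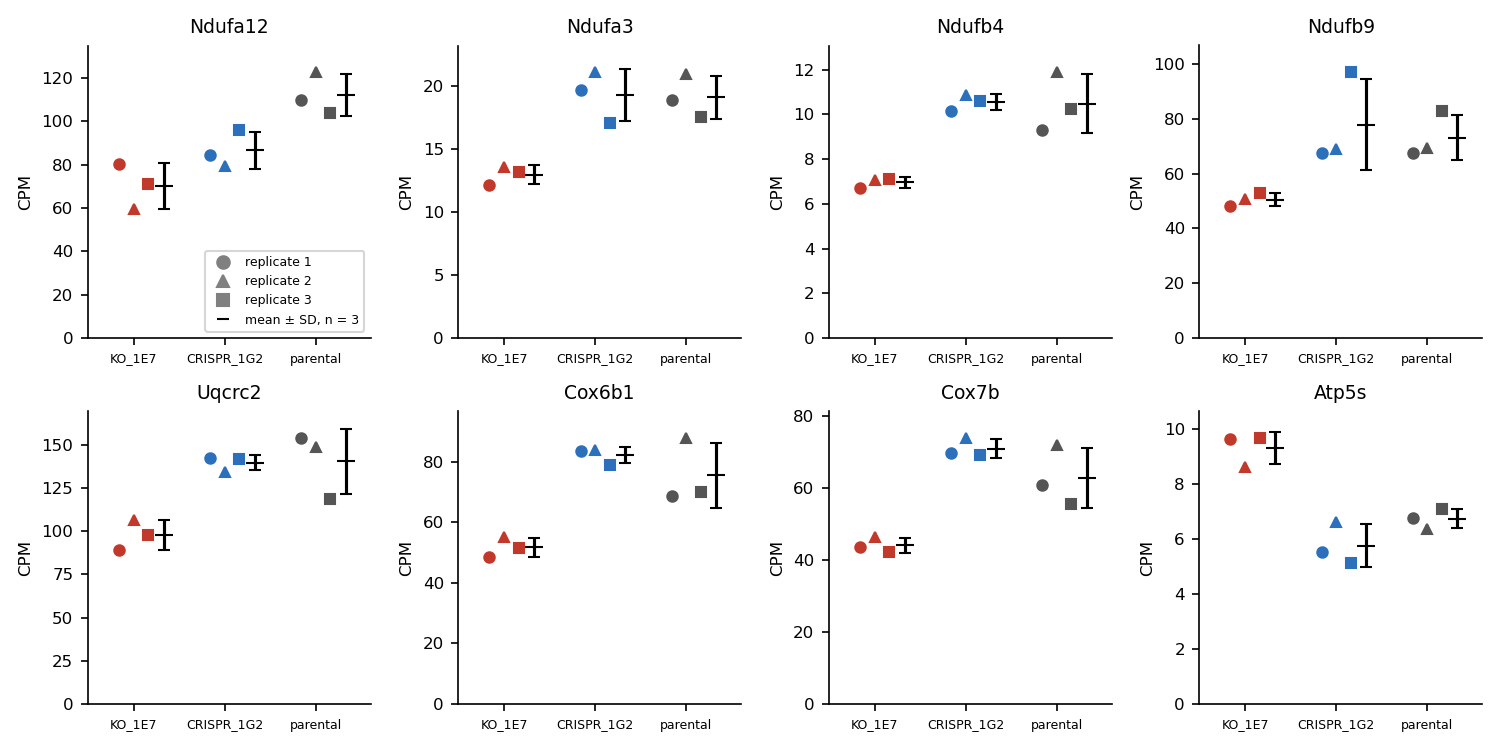
CPM of the 8 members called in any comparison (y axes) in each library, KO_1E7, CRISPR_1G2 and parental from left to right, with the mean ± SD of 3 libraries as a bar. KO_1E7 lies below both other groups in Ndufa3, Ndufb4, Ndufb9, Uqcrc2, Cox6b1 and Cox7b, and above them in Atp5s.

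Where subunits of complex IV have tissue isoforms, the general ones were at higher levels. Cox4i1, the general isoform of subunit 4, had 437, 331 and 371 CPM in KO_1E7, 287, 284 and 269 CPM in CRISPR_1G2, and 302, 318 and 248 CPM in parental cells, and was at 204 CPM per kb over the 9 libraries against 0.609 CPM per kb for Cox4i2, an isoform known from lung and low oxygen. All KO_1E7 libraries were above the others, with a log2 fold change of 0.39 against parental cells (SE 0.15, adjusted p = 0.149 in edgeR), and it was called in 1 of 19 other settings. Emc8 overlaps 20.1% of Cox4i1 on the other strand, and reads of the pair cannot be told apart there without strand. Emc8 had 3816, 3722 and 3068 counts in KO_1E7, 2355, 2557 and 1807 in CRISPR_1G2, and 2707, 2961 and 1770 in parental cells. The heart and muscle isoforms Cox6a2 and Cox7a1 were at 0.427 and 2.13 CPM per kb, while Cox6a1, Cox8a and Cox7a2 were at 175, 190 and 43.3 CPM per kb. Cox6a2 had 0.0565, 0.0379 and 0.0298 CPM in KO_1E7, 0.109, 0 and 0.366 CPM in CRISPR_1G2, and 0.929, 0.193 and 0.890 CPM in parental cells. Its KO_1E7 libraries lay below the parental ones at a level of few reads (log2 fold change -3.91, SE 1.07, adjusted p = 0.0680 in edgeR). Cox4i2 had 0.311, 0.114 and 0.269 CPM in KO_1E7, 0.617, 0.630 and 0.550 CPM in CRISPR_1G2, and 0.383, 0.304 and 1.14 CPM in parental cells, with KO_1E7 and parental values overlapping. Of the c subunit genes of the ATP synthase, which encode the same mature protein, Atp5g2 was at 76.4 CPM per kb, below Atp5g3, and Atp5g1 was lowest at 22.3 CPM per kb. Atp5g1 had 105, 66.8 and 85.4 CPM in KO_1E7, 123, 117 and 114 CPM in CRISPR_1G2, and 121, 147 and 105 CPM in parental cells (log2 fold change -0.53 against parental, SE 0.19, adjusted p = 0.127 in edgeR). The KO_1E7 and parental values met at 105 CPM. Per kb, Atp5b, the catalytic beta subunit of the ATP synthase, was the highest nuclear member at 309 CPM per kb.

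The other genes' median change in KO_1E7 against parental cells was beyond 0.3 in size, on the log2 scale, on chromosomes 7, 8 and 16, and there the nuclear members had its direction. Over all 19 chromosomes with a tested nuclear member, the members' median was on the same side of 0 as that of the other genes on 11 and on the other side on 8. All 6 tested members on chromosome 7, Cox6a2, Cox6b1, Cox7a1, Ndufa3, Ndufc2 and Uqcrc2, had negative changes in KO_1E7 against parental cells, from -3.91 to -0.45, and the median of the 1234 other tested genes there was -0.45. On chromosome 16 all 3 were negative, beside a median of -0.37 in 456 others, and on chromosome 8 all 3, including Cox4i1 and Ndufa13, were positive, beside 0.31 in 889 others. Against CRISPR_1G2 the medians of the other genes were -0.53 on chromosome 7, -0.52 on chromosome 16 and 0.34 on chromosome 8. For CRISPR_1G2 against parental cells they were 0.06 on chromosome 7, 0.17 on chromosome 16 and -0.0045 on chromosome 8. Of the 8 called members, Cox6b1, Ndufa3 and Uqcrc2 are on chromosome 7 and Ndufb4 on chromosome 16. The remaining 4 are where the other genes' median against parental cells was smaller: Ndufa12 on chromosome 10 (-0.09), Atp5s on 12 (0.02), Ndufb9 on 15 (-0.07) and Cox7b on X (-0.16). Atp5s, Ndufb9 and Cox7b were called against CRISPR_1G2. In that comparison the other genes' medians were 0.04 on chromosome 12, -0.06 on 15 and -0.33 on X, the last also beyond 0.3 in size. Medians on opposite sides occurred on chromosome 13, with -0.10 over 5 members and 0.14 over the other genes, and on X, with 0.16 over 3 members and -0.16 over the other genes. What part such chromosome-wide shifts have in the calls was not tested.

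**Figure D5:**
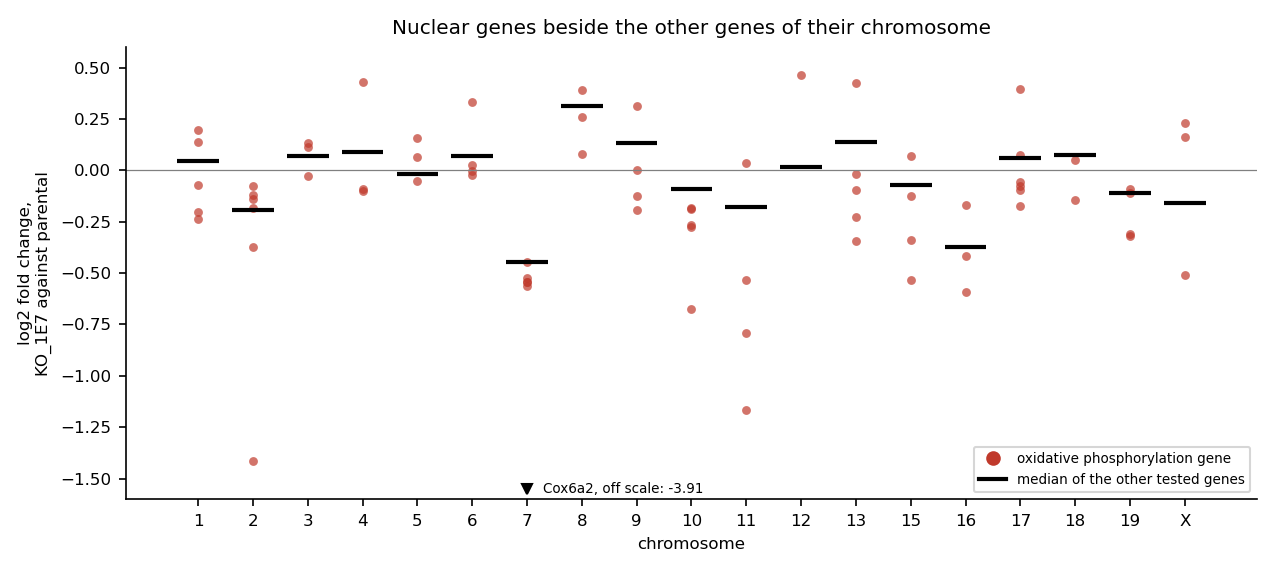
Log2 fold change of KO_1E7 against parental cells (y axis) for each tested nuclear member (points) by chromosome (x axis), beside the median of the other tested genes of that chromosome (bar). The triangle marks Cox6a2 at -3.91. The points on chromosome 7 lie below 0 and those on chromosome 8 above 0, on the side of the bar.

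NRF1 and ETS-family factors are known regulators of nuclear respiratory genes. Their motifs were searched on both strands of the 250 bases before the RefSeq start, for the 63 of 79 nuclear members matched by symbol (RefSeq, GRCm38.p6). The NRF1 motif, GCGCA and GCGC with any base between them, was in 11 of the 63 (17.5%) and in 4.23% of 27025 genes. The ETS motif CCGGAAG was in 11 (17.5%) and in 7.83% of genes. Among the 8 called members, Ndufb4 held the first motif and Cox6b1 the second. The stretch of the Ndufb4 promoter before the gene as the deposited table places it, chr16:37654454-37654618 on the minus strand, is shown with the motif in capitals, because Ndufb4 is the called member that holds it.
Ndufb4: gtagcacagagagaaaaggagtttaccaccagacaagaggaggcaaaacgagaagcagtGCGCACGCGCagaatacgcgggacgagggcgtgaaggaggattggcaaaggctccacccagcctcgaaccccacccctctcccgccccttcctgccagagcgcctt
A match describes these letters and not binding by the factor.

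Replicate 3 of CRISPR_1G2 and of the parental line also departed from replicates 1 and 2 in members. In CRISPR_1G2, 21 of 74 tested nuclear members (28.4%) differed by over 0.5 on the log2 scale from the mean of replicates 1 and 2, beside 44.1% of all genes tested. In the parental line 17 members did (23.0%), beside 37.1%, and in KO_1E7 0 did, beside 7.60%. In both CRISPR_1G2 and parental cells, Ndufa4, Ndufb10, Ndufs8, Ndufv2, Uqcr11, Atp5g3, Atp5h, Atp5j, Atp5j2 and Atp5k were lower there and Uqcrq was higher.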

How the data were processed

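The deposited values were raw counts of reads per gene, per the file headers, in 9 libraries. The submitters' processing notes name bcl2fastq 2.17, STAR 2.5.2b, Subread 1.5.2 (featureCounts), DESeq2 and the build GRCm38. Which annotation release and strand setting the authors used is not given in the sources used here. NEBNext Ultra II RNA, the kit named in the labels' protocols, is not a directional one.

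The series table and the sample tables differed in 0 cells, and 92 spike-in controls were left out. Tests used edgeR 4.0.16 in R 4.3.3 (robust quasi-likelihood F-test, TMM scaling, expression filter by group) on all 9 libraries, with Benjamini-Hochberg adjustment over 15766 genes and calls at an adjusted p below 0.05, for 3 comparisons. Levels are CPM from TMM-scaled library sizes. DESeq2 1.42.0 was an alternative. The genes, lists and tests were chosen with earlier results of these data known. Copies were searched with BLAST 2.17.0 at 95% identity over at least 20% of a gene. Tests were tried on simulated counts. Genes were named when called, when they had 1 of the 2 largest changes or the highest level per kb of a complex and genome, when they belonged to a tissue isoform set or were mitochondrially encoded, or as at most 3 called genes of a pathway list. Others are named where a count was small or as chosen after their values were seen.

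Deviations from group means correlated between same-numbered CRISPR_1G2 and parental libraries (0.243, 0.469 and 0.647), but CRISPR_1G2 replicate 1 correlated more with parental replicate 2 (0.54), with which it shares a date in the column name. KO_1E7 replicate 1 and parental replicate 1 share a date and gave -0.003. A replicate block changed no call of a member between CRISPR_1G2 and parental cells. The other settings were DESeq2, other scaling, no filter, the replicate block, a term for the NSG tag, only the groups compared, libraries left out and, chosen after seeing the data, a term for the date or tag in the column names. Replicates were counted separately, since the chi-square per gene between them was 8.84 to 765, above counting error.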

Additional observations from a re-analysis of the deposited data

Results flagged for a closer look

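Against CRISPR_1G2, KO_1E7 differed in 7 of 87 members in the test between the clones, by edgeR with adjustment over all genes. The same test called 12.7% of all 15766 genes. The log2 fold changes were -0.69 for Cox7b, -0.67 for Cox6b1, -0.58 for Ndufa3, -0.51 for Uqcrc2, -0.62 for Ndufb9, -0.60 for Ndufb4 and 0.69 for Atp5s. Each of these genes had its 3 KO_1E7 libraries on 1 side of all 3 CRISPR_1G2 libraries, as did 19.2% of all genes above and 19.4% below. The 7 were chosen by a test on the same libraries, so this adds no support to the calls. Why the clones differ was not tested.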

How the results depend on the processing

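The number of members called depended on the processing, and so did the number called over all genes. For KO_1E7 against parental cells (0 higher, 2 lower), members higher numbered 5 with DESeq2, 1 with a term for libraries tagged NSG, 1 with the date or tag term, 4 without parental 3 and CRISPR_1G2 3, and 8 when KO_1E7 2 was also left out. Members lower numbered 14 with DESeq2, 0 with no filter on low counts, 6 with a replicate block, 11 with the NSG term, and 17 and 17 without those 2 or 3 libraries. Leaving out 1 library gave 0 to 2 higher and 0 to 10 lower. Over all genes, edgeR called 854 of 15766 in the reported fit, 546 of 31003 with no filter and 1298 with the block. It called 2060 with the NSG term, 3330 and 4423 without the 2 or 3 libraries, and 24 to 1998 without 1 library. DESeq2 called 2358. For CRISPR_1G2 against parental cells (0 lower), 1 member was lower with DESeq2 and 3 without the 3 libraries. Over all genes, 40 were called in the reported fit, 235 with DESeq2 and 326 without the 3 libraries. For KO_1E7 against CRISPR_1G2 (1 higher, 6 lower), members higher numbered 8 with DESeq2, 0 with no filter, 0 with a replicate block, 4 with the NSG term, 8 and 13 without the 2 or 3 libraries, and 0 with only the 2 groups. Members lower numbered 12 with DESeq2, 2 with no filter, 11 with the NSG term, 3 with the date or tag term, 17 and 16 without the 2 or 3 libraries, and 3 with only the 2 groups. Leaving out 1 library gave 0 to 3 higher and 0 to 5 lower. Over all genes in this comparison, edgeR called 2010 in the reported fit, 1390 with no filter, 2614 with the block and 3330 with the NSG term. It called 4615 and 5557 without the 2 or 3 libraries, 1487 with only the 2 groups, and 453 to 2332 without 1 library. DESeq2 called 3374. The replicate numbers of KO_1E7 did not pair with those of the other groups (correlations of deviations -0.003, 0.056 and 0.153 with parental cells, -0.05, 0.127 and 0.073 with CRISPR_1G2), so the block is given here as a setting only. The date or tag term, chosen after seeing the data, called 1855 of all genes in KO_1E7 against parental cells and 2255 against CRISPR_1G2. The cause of these differences was not tested. Without 1 library, the ratio of KO_1E7 to parental cells was 1.36 to 1.42 in the mitochondrial over nuclear sum (1.39 with all). Estimates of mt-Nd3 and mt-Co3 in KO_1E7 against parental cells were positive in 16 of 20 settings, the reported one included, and those of the other 11 mitochondrial genes in all 20. Depth limits the 6 mitochondrial genes with at most 421 reads per library.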

Other observations

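Genes that help build and run the respiratory chain, from lists chosen with earlier results known, are given for KO_1E7 against parental cells, where edgeR called 5.42% of all genes, 2.54% higher and 2.87% lower. Of 15 tested complex I assembly genes, 0 rose and 2 fell in edgeR: Timmdc1 (log2 fold change -0.64, adjusted p = 0.0493) and Tmem186 (-0.64, adjusted p = 0.0406), with a list median of -0.33 beside -0.03 over all genes. Both genes are on chromosome 16, where the median of the 456 tested genes that are not members was -0.37. The part of that shift in these calls was not tested. Of 23 tested complex IV assembly genes, Coa3 fell, with 19.3 ± 2.77 CPM in KO_1E7 and 36.9 ± 1.06 CPM in parental cells (SD, n = 3 each, log2 fold change -0.93, adjusted p = 0.0165 in edgeR). Of 23 genes that replicate, transcribe and process mitochondrial nucleic acids, Elac2, a tRNA-processing nuclease, fell (log2 fold change -0.55, adjusted p = 0.04997 in edgeR), with a list median of -0.16. None of 6 complex III assembly genes (median -0.41), 6 genes of complex II and cytochrome c (-0.04), 5 ATP synthase assembly genes (0.01), 12 regulators of mitochondrial biogenesis (-0.23) or 19 tested glycolysis genes (0.24) passed in edgeR. The calls of Timmdc1 and Elac2 held without CRISPR_1G2 replicate 3 and ended without any other 1 library, and that of Tmem186 held only without that library or KO_1E7 replicate 2. The calls of Elac2 and Tmem186 also ended with the date or tag term. The call of Coa3 ended without KO_1E7 replicate 1, KO_1E7 replicate 3 or parental replicate 1.

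Among fuel and uncoupling genes, Ucp2, a mitochondrial carrier that can lower the proton gradient, rose to 38.6, 19.4 and 34.9 CPM in KO_1E7, against 2.11, 1.51 and 1.13 CPM in CRISPR_1G2 and 5.87, 4.11 and 1.58 CPM in parental cells (log2 fold change against parental 3.00, adjusted p = 0.0169 in edgeR). Pdk4, which inhibits pyruvate dehydrogenase, had 1.24, 1.00 and 1.13 CPM in KO_1E7, at most 0.0946 CPM in CRISPR_1G2 and at most 0.0820 CPM in parental cells, and rose (log2 fold change against parental 4.06, adjusted p = 0.0134). Ucp2 was the 1 gene called against parental cells of 4 tested uncoupling and ADP/ATP carrier genes (list median 0.20). Pdk4 was the 1 called of 23 tested genes of the tricarboxylic acid cycle and pyruvate dehydrogenase (list median -0.09). The Pdk4 call ended without KO_1E7 replicate 1, KO_1E7 replicate 3 or parental replicate 1, and the Ucp2 call without KO_1E7 replicate 1 or KO_1E7 replicate 3. For CRISPR_1G2 against parental cells, no gene of these lists was called by edgeR.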
